A study of Homo sapiens with 6 samples.

Results

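The genes described here make melanin and build the compartment in which it is laid down. They are TYR, TYRP1, DCT, PMEL, MLANA, GPNMB, GPR143, OCA2, SLC45A2 and SLC24A5. A gene was taken where a probe set of the array carried its symbol and no other symbol. Where several probe sets did, the brightest on average across the 6 arrays was used. This gave 9 of the 10 genes, out of 18417 genes tested in all. DCT was not analysed here.

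The IDTC group (induced drug tolerant cells, 3 arrays) consisted of WM164 melanoma cells kept in 500 nM PLX4032 for 16 days. PLX4032 is vemurafenib, which blocks the kinase made from mutant BRAF. They were set against WM164 cells that had received only DMSO, the solvent (Parent, 3 arrays), and the labels found here give no duration for the DMSO. Both groups are the same BRAF-mutated line, taken from a lymph node metastasis, so everything below describes a single line. The design text states that cultures were kept in triplicate with RNA isolated from each on its own. It does not say whether the cultures were separate experiments, and the p-values therefore reflect only how much these cultures varied, technical variation included.

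Melanin is made in melanosomes, organelles related to lysosomes, by enzymes of the tyrosinase family. Tyrosinase, the product of TYR, oxidises tyrosine, and TYRP1 and DCT act on later steps and help to keep tyrosinase stable. The melanin settles on amyloid fibrils of the PMEL protein, whose maturation involves MLANA, and ion and solute transporters such as OCA2, SLC45A2 and SLC24A5 set the conditions inside the organelle under which tyrosinase works. The transcription factor MITF is known to bind the promoters of several of these genes at an E-box variant called the M-box, and melanoma cells are commonly described as more or less differentiated by how much of this set they express.

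Because the M-box was first described in these genes, the bases before their starts are shown for 6 of the measured genes. They are the 4 genes that rose and held an M-box, SLC24A5, which held an M-box and did not rise, and MLANA, which rose and held none. Each line gives the 250 bases before the RefSeq start of the gene in build GRCh38.p14, 5′ to 3′ on the strand of the gene. Capitals mark the M-box core, CATGTG, or CACATG where it lies on the opposite strand.
TYRP1, chr9:12693135-12693384, plus strand: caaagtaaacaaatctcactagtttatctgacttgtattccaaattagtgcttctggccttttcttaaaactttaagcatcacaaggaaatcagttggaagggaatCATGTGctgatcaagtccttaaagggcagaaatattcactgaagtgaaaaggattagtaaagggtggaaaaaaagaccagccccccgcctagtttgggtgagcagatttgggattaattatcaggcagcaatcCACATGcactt
TYR, chr11:89177625-89177874, plus strand: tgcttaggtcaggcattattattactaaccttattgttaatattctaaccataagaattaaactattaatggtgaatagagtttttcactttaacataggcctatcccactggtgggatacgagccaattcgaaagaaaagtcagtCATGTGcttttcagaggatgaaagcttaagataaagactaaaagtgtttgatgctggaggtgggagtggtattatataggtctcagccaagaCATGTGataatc
GPNMB, chr7:23246525-23246774, plus strand: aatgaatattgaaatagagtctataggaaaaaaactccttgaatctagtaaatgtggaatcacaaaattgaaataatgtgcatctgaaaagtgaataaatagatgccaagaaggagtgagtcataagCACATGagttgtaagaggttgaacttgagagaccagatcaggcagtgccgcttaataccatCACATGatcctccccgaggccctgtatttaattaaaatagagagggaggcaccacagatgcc
GPR143, chrX:9765848-9766097, minus strand: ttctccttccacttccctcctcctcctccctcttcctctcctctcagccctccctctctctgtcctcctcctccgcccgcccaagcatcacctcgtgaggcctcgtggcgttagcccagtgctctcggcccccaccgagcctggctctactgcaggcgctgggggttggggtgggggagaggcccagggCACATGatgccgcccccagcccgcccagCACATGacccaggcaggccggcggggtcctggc
SLC24A5, chr15:48120740-48120989, plus strand: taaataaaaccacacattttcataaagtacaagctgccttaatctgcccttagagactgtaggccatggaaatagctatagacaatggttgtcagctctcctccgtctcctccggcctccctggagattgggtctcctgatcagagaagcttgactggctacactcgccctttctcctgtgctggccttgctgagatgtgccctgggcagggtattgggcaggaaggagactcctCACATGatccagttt
MLANA, chr9:5890639-5890888, plus strand: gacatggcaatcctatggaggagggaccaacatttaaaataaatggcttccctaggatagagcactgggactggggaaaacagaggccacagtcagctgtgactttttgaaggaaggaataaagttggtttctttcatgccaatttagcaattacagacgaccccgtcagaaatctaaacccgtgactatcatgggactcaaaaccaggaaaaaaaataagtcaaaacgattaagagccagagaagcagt

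The search covered windows of 300 bases, with 250 before and 50 after each start, on both strands. RefSeq windows were found for 8 of the 10 genes, 9 windows in all because DCT had 2. The M-box, written TCATGTG and therefore containing the core, was found in 6 of the 9 windows, each belonging to a different gene. Its share over all 35116 windows was 2.92%. Since the M-box was first described in genes of this set, setting these shares side by side is no test. The shorter core was found in 7 windows, and in 11.1% of all windows. Distances are given to the first base of the core. In TYRP1 the core lay 144 bases before the start within an M-box and again 11 bases before it without the flanking T. TYR also had a core within an M-box and a core without the flanking T, 104 and 12 bases before the start. The core nearest the start lay on the strand of the gene in TYR and on the opposite strand in TYRP1. GPNMB had M-boxes 123 and 62 bases and GPR143 61 and 33 bases before the start. SLC24A5 had an M-box 15 bases before the start, and the second DCT window had a pair, 215 and 134 bases before its start. OCA2 held the core alone, 153 bases before the start. The E-box CACGTG was in none of the 9 windows, against 7.26% of all windows. The SOX core ACAAAG was found once, in OCA2 (16.1% of all windows), and the TATA box TATAAA once, after the start of TYRP1 (11.5% of all windows). A match describes letters in the window and not a bound site.

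**Figure D1:**
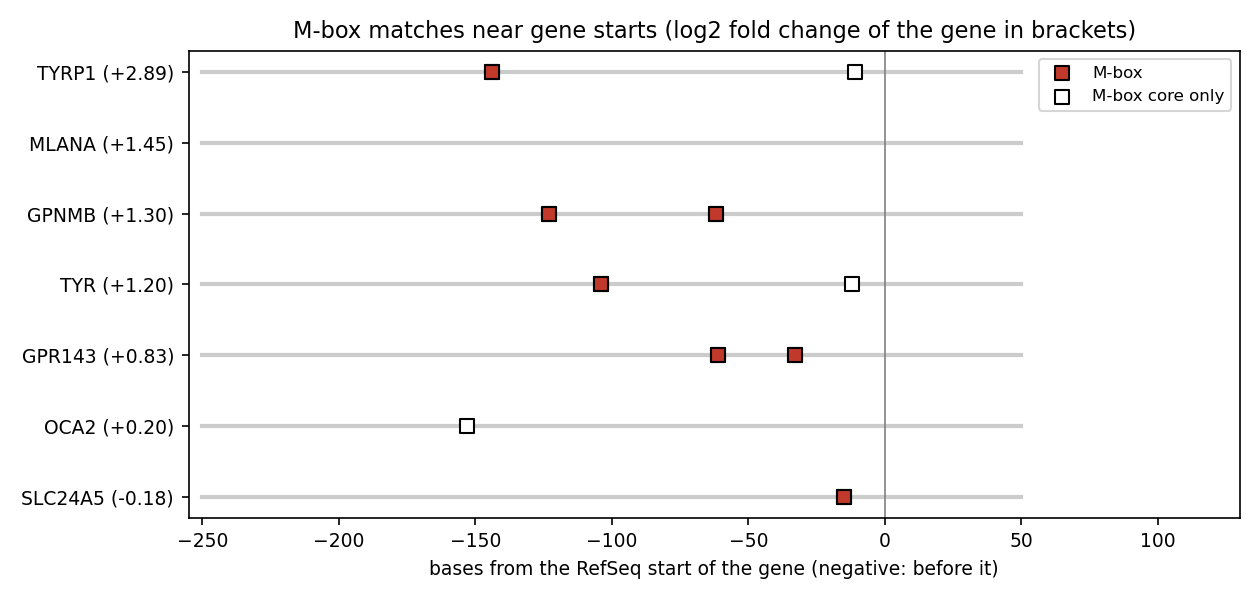
Positions of the M-box (red squares) and of its core without the flanking T (white squares) in the 300 bases around the RefSeq start of the 7 measured genes with a window, in bases from the start. Rows run from the highest to the lowest log2 fold change (IDTC minus Parent, in brackets): TYRP1 at the top (2.89) and SLC24A5 at the bottom (-0.18) both hold an M-box, and MLANA (1.45) holds none.

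Of the 9 measured genes, 8 rose in the IDTC cells and 1, SLC24A5, fell. All 9 were thus called, where called means a Benjamini-Hochberg adjusted p under 0.05 in limma over all genes, against 46.6% of all genes tested. Genes called higher made up 21.7% of all genes and genes called lower 24.9%. The log2 fold changes (IDTC minus Parent, as throughout) ran from -0.18 for SLC24A5 to 2.89 for TYRP1, with a median of 0.88 over the 9 genes and -0.01 over all genes tested. A rise of 2-fold or more was found for 4 of the 9, TYRP1, MLANA, GPNMB and TYR, against 3.81% of all genes. In all 8 genes that rose, every IDTC array lay above every Parent array, as in 25.4% of all genes, and for SLC24A5 every IDTC array lay below, as in 28.7%. The values are the authors' normalized log2 expression. They allow no comparison of level between genes, since each probe set has its own sensitivity. They also come from whole cultures, so a different number of pigmented cells and a different amount of RNA in each such cell cannot be told apart.

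**Figure D2:**
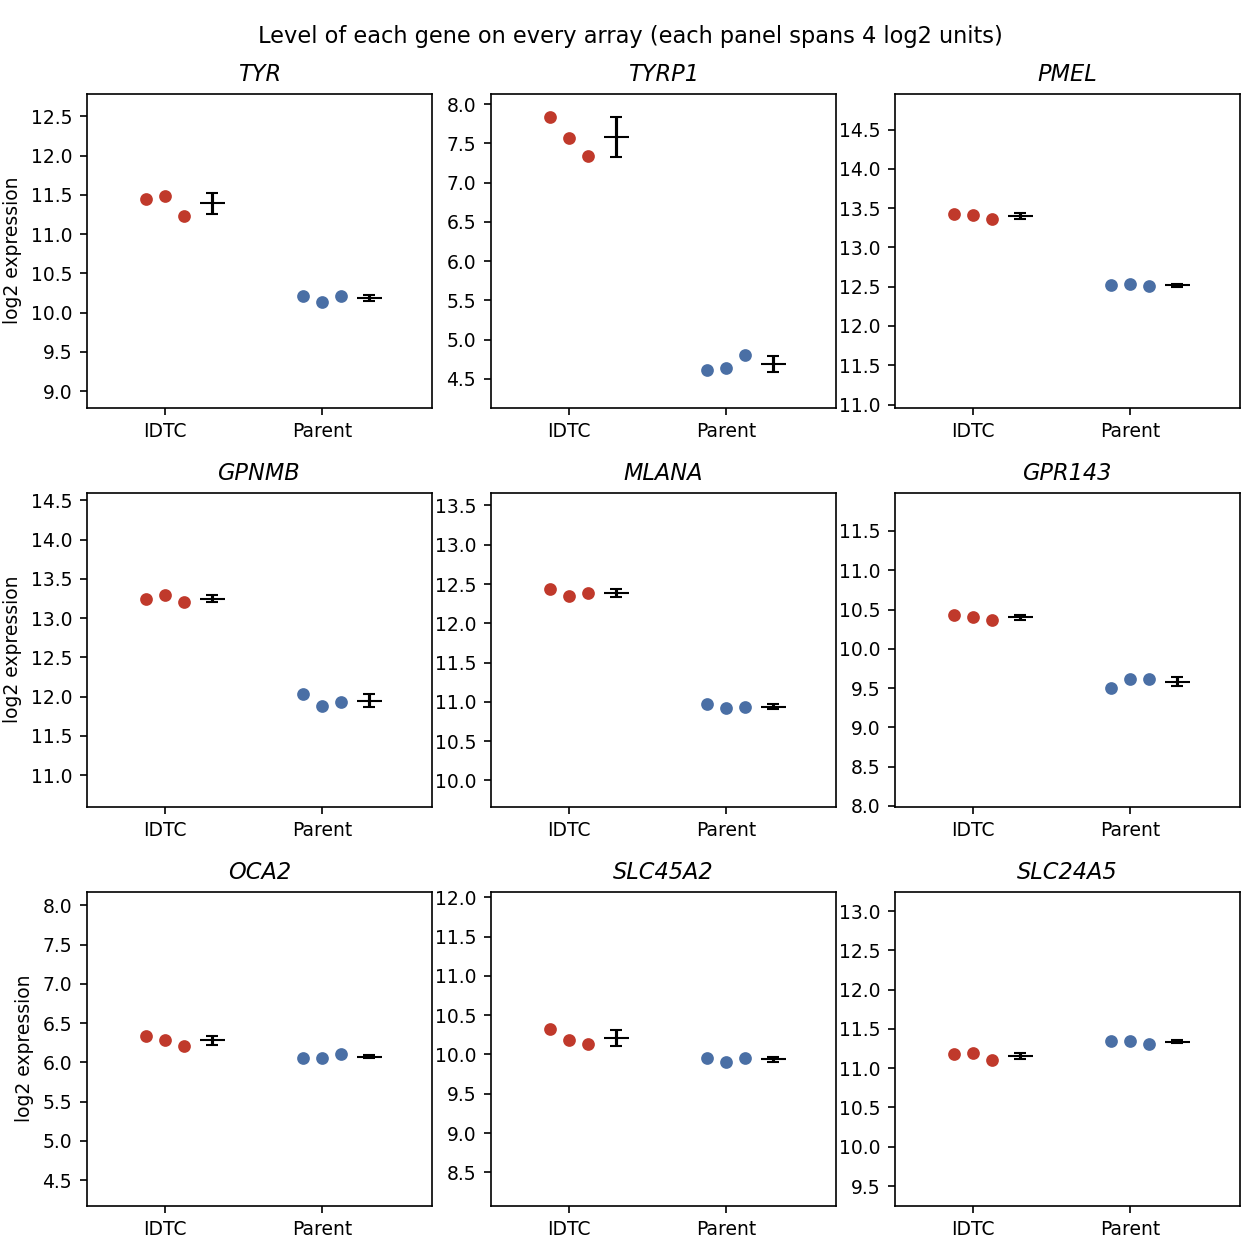
Log2 expression of the 9 measured genes on each array, with IDTC arrays in red on the left and Parent arrays in blue on the right, and the group mean with its SD in black (n = 3). Every panel spans 4 log2 units, so that heights can be compared: TYRP1 shows the widest separation and OCA2, SLC45A2 and SLC24A5 the narrowest.

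Among the enzymes, TYRP1 had log2 levels of 7.83, 7.57 and 7.34 on the IDTC arrays, against 4.62, 4.64 and 4.80 on the Parent arrays. The groups were separated by 2.54 log2 units, the widest gap of the set. TYRP1 averaged 7.58 ± 0.25 in IDTC and 4.69 ± 0.10 in Parent cells (SD, n = 3), a log2 fold change of 2.89 ± 0.12 (SE, adjusted p = 2.15e-06, limma) or 7.41-fold. Only 24 of all genes, TYRP1 included, had a log2 fold change as high. By its mean over the 6 arrays TYRP1 was among the dimmest 40% of genes, and no detection call was available to say whether the Parent level lay above background. A fold change measured against a background level would be too small.

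TYR, the rate-limiting enzyme, was measured at 11.45, 11.48 and 11.23 in IDTC cells, against 10.21, 10.14 and 10.21 in Parent cells. It rose by 1.20 ± 0.08 (2.30-fold, adjusted p = 1.33e-05, limma). TYR was the only measured gene of the set with more than 1 probe set, and both moved the same way. The dimmer probe set read 10.82, 10.65 and 10.62 in IDTC cells, against 9.16, 9.02 and 9.09 in Parent cells. Its log2 fold change was 1.61 ± 0.08 (adjusted p = 2.30e-05, limma over all probe sets), so the size of the rise depends on the probe set more than on the spread between arrays. TYR has a partial pseudogene copy, TYRL, and the annotation used here does not say which probe set might also read it.

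Of the matrix and structural proteins, MLANA, a small melanosomal protein better known as the melanoma antigen MART-1, had levels of 12.44, 12.35 and 12.38 in IDTC cells, against 10.97, 10.92 and 10.93 in Parent cells. The IDTC arrays were uniformly high and the groups lay far apart relative to their spread. The rise was 1.45 ± 0.05 (2.73-fold, adjusted p = 1.19e-06, limma). GPNMB, a glycoprotein related to PMEL and found in melanosomes and lysosomes, read 13.24, 13.30 and 13.21 in IDTC cells, against 12.04, 11.88 and 11.93 in Parent cells. It rose by 1.30 ± 0.06 (2.46-fold, adjusted p = 3.43e-06, limma).

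PMEL, the fibril-forming protein, was at 13.43, 13.41 and 13.36 in IDTC cells, against 12.52, 12.54 and 12.51 in Parent cells. It rose by 0.88 ± 0.05 (1.84-fold, adjusted p = 7.97e-06, limma), with groups that did not overlap. The highest value of any probe set was 13.9 on every array, so PMEL and GPNMB in IDTC cells were near the top of the scale.

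GPR143, a G protein-coupled receptor of the melanosome membrane that regulates melanosome size, had levels of 10.43, 10.41 and 10.37 in IDTC cells, against 9.50, 9.61 and 9.62 in Parent cells. All IDTC arrays were higher by at least 0.75 log2. The rise was 0.83 ± 0.06 (1.77-fold, adjusted p = 1.75e-05, limma).

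The membrane transporters moved least. SLC45A2, a sugar and proton transporter that affects melanosome pH, was measured at 10.32, 10.19 and 10.13 in IDTC cells, against 9.95, 9.90 and 9.96 in Parent cells. The groups were separated by 0.17 log2, and the rise was 0.28 ± 0.07 (1.21-fold, adjusted p = 0.0101, limma). OCA2, whose product supports a chloride conductance that raises melanosome pH, read 6.33, 6.29 and 6.21 in IDTC cells, against 6.06, 6.06 and 6.10 in Parent cells. It rose by 0.20 ± 0.06 (1.15-fold, adjusted p = 0.0194, limma), and its mean level was among the dimmest 40% of genes. SLC24A5, a potassium-dependent sodium and calcium exchanger needed for pigmentation, was at 11.18, 11.19 and 11.11 in IDTC cells, against 11.35, 11.35 and 11.31 in Parent cells. It fell by 0.18 ± 0.05 on the log2 scale (1.13-fold lower, adjusted p = 0.0251, limma).

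The calls of OCA2 and SLC24A5 depended on the arrays and on the scaling. The adjusted p of OCA2 was 0.0501 without Parent 1, 0.0661 without Parent 2, 0.0596 without IDTC 1 and 0.0607 without IDTC 2. That of SLC24A5 was 0.0577 without Parent 1, 0.0798 without Parent 2 and 0.055 without Parent 3. Both calls were also lost after re-centring the arrays (0.0745 for OCA2 and 0.0554 for SLC24A5) and after quantile normalization (0.0619 for OCA2 and 0.079 for SLC24A5), and that of OCA2 when the prior variance followed the mean level (0.0574). The direction of each was kept under every alternative in which it was tested. SLC45A2 kept its call in all 13 alternatives.

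The size of the change therefore differed widely within the set. The 95% interval of TYRP1, 2.60 to 3.18, lay above that of every other measured member. MLANA (1.32 to 1.57), GPNMB (1.15 to 1.45) and TYR (1.02 to 1.38) had intervals that overlapped each other. PMEL (0.76 to 1.00) and GPR143 (0.69 to 0.96) overlapped each other and lay below these. SLC45A2 (0.12 to 0.43) and OCA2 (0.07 to 0.33) were lower again, and SLC24A5 (-0.30 to -0.06) lay below 0. Differences between genes were not tested themselves, and the order would put TYR above MLANA if its dimmer probe set stood for it.

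**Figure D3:**
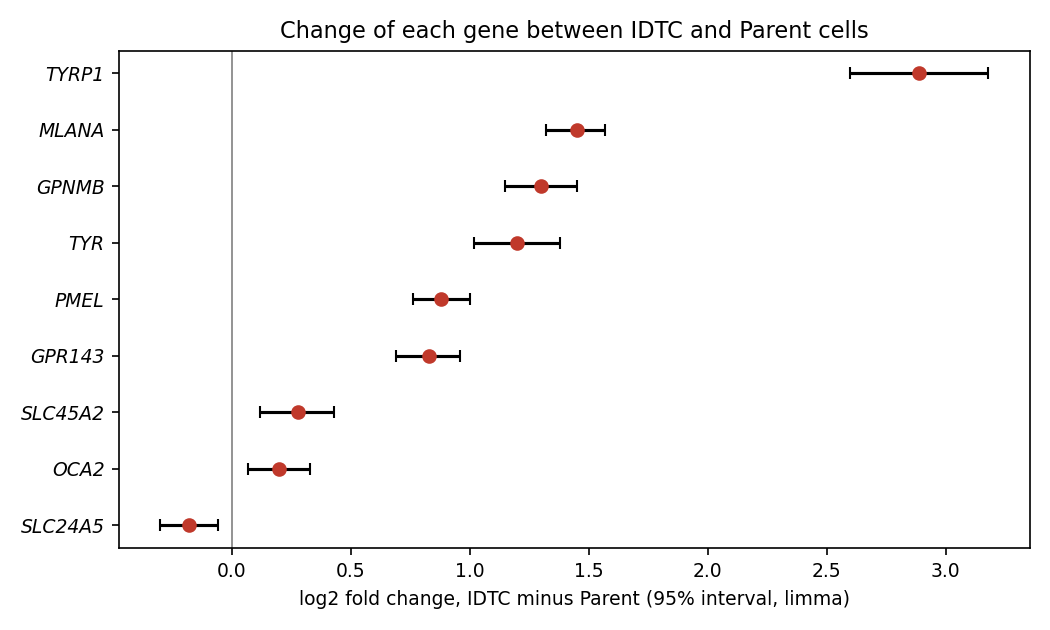
Log2 fold change of each measured gene (IDTC minus Parent, red points) with its 95% interval from limma (black bars), from 3 arrays per group. TYRP1 at 2.89 stands apart from the others, a middle group runs from GPR143 at 0.83 to MLANA at 1.45, and the 3 transporters lie near 0.

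Within the IDTC group the third array was the lowest for 8 of the 9 genes, with a median deviation of -0.05 log2 from the group mean, and the first was the highest for 6. TYRP1 showed the largest spread. Its log2 fold change was 3.01 without IDTC 3, 2.89 without IDTC 2 and 2.76 without IDTC 1. The Parent arrays had no such order, and each of them was the lowest for 2 to 4 genes. Over all probe sets, the interquartile range was 3.31 to 3.49 log2 in IDTC and 3.51 to 3.60 log2 in Parent arrays, lowest in IDTC 3. The part of this order of arrays in the results was not tested. Across genes, Pearson's r was 0.995 to 0.998 for pairs of arrays within a group and 0.953 to 0.957 for pairs that crossed groups.

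The genes whose profile over the 6 arrays was most like that of TYRP1 were NCKAP5, KLHL24 and JUN. Likeness was the root mean square difference between profiles, each centred on its own mean, and was 0.07, 0.11 and 0.12 log2 for these genes. With 6 arrays in 2 groups it mostly picks genes with a group difference of similar size. Their log2 fold changes were 2.91, 2.82 and 2.73, beside 2.89 for TYRP1, and shared regulation was not tested. NCKAP5 averaged 7.98 ± 0.21 in IDTC and 5.06 ± 0.09 in Parent cells (SD, n = 3). KLHL24 averaged 9.48 ± 0.08 in IDTC and 6.66 ± 0.08 in Parent cells. JUN, a subunit of the AP-1 transcription factor, averaged 9.51 ± 0.17 in IDTC and 6.77 ± 0.08 in Parent cells.

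The transcription factors known to control these genes did not move together. MITF was at 11.20, 11.07 and 11.03 in IDTC cells, against 11.14, 11.14 and 11.13 in Parent cells. The groups overlapped, and the difference of -0.04 had a 95% interval of -0.18 to 0.11 (adjusted p = 0.671, limma). Which transcripts of MITF the probe set reads could not be read from the annotation used here. SOX10, which acts with MITF on pigment genes, averaged 11.57 ± 0.01 in IDTC and 10.73 ± 0.06 in Parent cells and rose by 0.85 ± 0.05. Of the 26 pigment gene transcription factors measured, 11 rose (42.3%), 8 fell (30.8%) and 7 were not called, with a median of 0.06. Among all genes tested, 21.7% were called higher and 24.9% lower. TFAP2A, a neural crest and melanocyte factor, rose by 2.40 ± 0.05 and ZEB2, a zinc finger factor of differentiated melanocytes, by 2.14 ± 0.05. The rise of ZEB2 was 1.92 with the mean of all its probe sets. TFAP2C, another AP-2 factor, fell by 1.74 ± 0.07 and LEF1, a nuclear partner of beta-catenin, fell by 1.43 ± 0.06.

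The receptors and the cyclic AMP pathway, which drive pigment gene expression in melanocytes, held genes that changed in each direction. Among 24 genes there were 5 that rose (20.8%, against 21.7% of all genes), 10 that fell (41.7%, against 24.9% of all genes) and 9 without a call, with a median of -0.07. MC1R, the melanocortin receptor that signals through cyclic AMP, averaged 8.49 ± 0.04 in IDTC and 10.09 ± 0.03 in Parent cells and fell by 1.60 ± 0.05 on the log2 scale (3.03-fold lower, adjusted p = 8.07e-07, limma). MRAP2, the gene of an accessory protein of melanocortin receptors, fell by 1.99 ± 0.09. The endothelin receptor gene EDNRB rose by 2.67 ± 0.07 and the adenylyl cyclase gene ADCY2 by 1.89 ± 0.06. MC1R and TYR thus changed in opposite directions on the same arrays.

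Ion, metal and solute transport in melanosomes and lysosomes was covered by 10 genes, with a median of 0.68. Of these, 7 rose (70.0%) and 1 fell. Among all genes tested, 21.7% were called higher and 24.9% lower. TRPM1, a melanocyte cation channel, rose by 2.03 ± 0.08. CLCN7, a chloride and proton exchanger of lysosomes, rose by 1.44 ± 0.06. ATP7A, the copper pump that loads tyrosinase with its metal, averaged 8.78 ± 0.10 in IDTC and 7.45 ± 0.20 in Parent cells and rose by 1.33 ± 0.11. CTNS, the cystine exporter, rose by 1.28 ± 0.05. SLC7A11, the cystine importer of the plasma membrane and the member that fell, was lower by 0.43 log2.

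The genes that process PMEL were mixed. Of 14 measured genes, 6 rose (42.9%, against 21.7% of all genes), 4 fell (28.6%, against 24.9%) and 4 were not called. Their median was 0.07. APOE, on which PMEL fibrils nucleate, rose by 1.77 ± 0.06, the protease gene CTSD by 0.96 ± 0.06 and NCSTN, a subunit of gamma-secretase, by 0.79 ± 0.06. FURIN, a proprotein convertase able to cleave PMEL, averaged 7.68 ± 0.03 in IDTC and 9.31 ± 0.09 in Parent cells and fell by 1.64 ± 0.06. BACE2, the protease that releases the PMEL amyloid fragment, was not called (0.09 ± 0.05, adjusted p = 0.21, limma).

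The 26 genes that sort cargo to melanosomes included 11 that rose (42.3%) and 9 that fell (34.6%), with a median of 0.10. The shares over all genes were 21.7% and 24.9%. LYST, a regulator of lysosome and melanosome size, rose by 2.49 ± 0.08. RAB38 (1.14 ± 0.05) and RAB32 (1.14 ± 0.07), the small GTPases that deliver tyrosinase and TYRP1, and KIF13A (1.13 ± 0.09), a kinesin that carries TYRP1, rose by nearly equal amounts. Melanosome transport had 5 rising genes and 1 falling gene out of 10, with a median of 0.22. MLPH, the linker between melanosomes and myosin, rose by 2.85 ± 0.09, RAB27A by 1.19 ± 0.06 and MREG by 0.54 ± 0.06, and RAB17 fell by 1.62 ± 0.06.

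The list of other MITF targets and melanocyte genes held 28 measured genes, 14 of them higher and 9 lower (32.1%), and its median was 0.21. CITED1, a transcriptional cofactor of pigment cells, rose by 2.21 ± 0.05, TNFRSF14 by 1.89 ± 0.08 and ABCB5 by 1.98 ± 0.10. The largest fall in the list was that of PLA1A, by 1.83 ± 0.08. TRPM1, given above, is also in this list. Lysosome genes were higher for 12 of 19 (63.2%, against 21.7% of all genes) and lower for 3 (15.8%, against 24.9%), at a median of 0.39. Those that rose included the hydrolase genes HEXA (1.79 ± 0.05), TPP1 (1.49 ± 0.05) and ASAH1 (1.30 ± 0.09). The largest falls were those of GLA (-0.71 ± 0.06) and NPC1 (-0.71 ± 0.07).

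The last lists cover the supply of tyrosine with melanin chemistry, and the folding of tyrosinase. Over all genes 21.7% were higher and 24.9% lower. For tyrosine supply and melanin chemistry, 3 of 12 genes were higher (25.0%) and 6 lower (50%), at a median of -0.11. GCH1 fell by 1.18 ± 0.07 and QDPR by 1.04 ± 0.10; both serve the supply of tetrahydrobiopterin, the cofactor that makes tyrosine from phenylalanine. The peroxidase gene GPX1 fell by 0.80 ± 0.08, and the amino acid transporter gene SLC7A8 rose by 0.99 ± 0.07. With the mean of all its probe sets, GPX1 had a smaller log2 fold change of -0.52. For folding and breakdown of tyrosinase in the endoplasmic reticulum, 4 of 19 genes were higher (21.1%) and 10 lower (52.6%), at a median of -0.19. RPN1, a subunit of the oligosaccharyltransferase, fell by 0.84 ± 0.06. Genes for the disposal of misfolded proteins were found on both sides. SEL1L rose by 0.90 ± 0.06 and OS9 by 0.78 ± 0.05, and EDEM1 fell by 0.92 ± 0.13.

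Taken once each, the 179 measured genes of these 10 lists had a median log2 fold change of 0.04. They held 72 that rose (40.2%, against 21.7% of all genes), 59 that fell (33.0%, against 24.9%) and 48 not called.

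**Figure D4:**
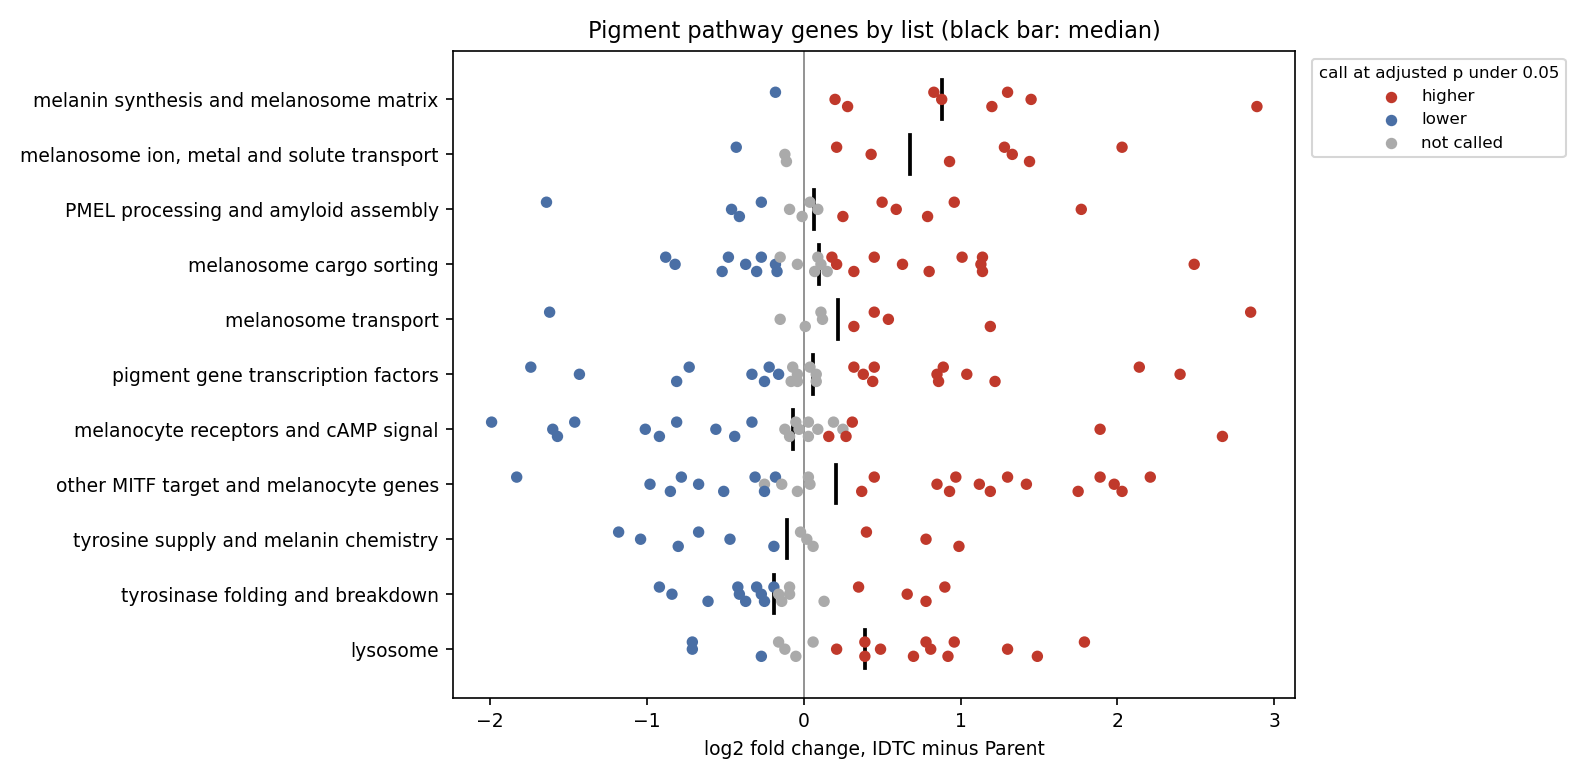
Log2 fold change (IDTC minus Parent) of the 9 measured melanin and melanosome matrix genes (top row) and of the genes of the 10 pathway lists below, with genes called higher in red, called lower in blue and not called in grey, and the list median as a black bar. The top row has its median at 0.88 and the lists below have medians from -0.19 to 0.68, the highest for ion, metal and solute transport. All rows have genes on both sides of 0, with only SLC24A5 below 0 in the top row.

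The lineage of the cells was checked with 10 melanocyte markers, of which 9 were measured. Since 4 of them are genes of the set, the check rests on the other 5. For all marker counts in this paragraph, the shares over all genes were 21.7% called higher and 24.9% called lower. PAX3, a melanocyte transcription factor, averaged 9.46 ± 0.01 in IDTC and 8.24 ± 0.12 in Parent cells and rose by 1.22 ± 0.07. SOX10 rose as given above. S100B averaged 10.17 in IDTC and 11.02 in Parent cells and fell by 0.85 ± 0.07, and MITF and S100A1 were not called. GPNMB is also a macrophage gene. The mean log2 level of 10 macrophage markers was 5.51 to 5.63 in IDTC and 6.16 to 6.21 in Parent arrays. LYZ fell by 3.03 ± 0.09, FCER1G fell by 2.13 ± 0.12 and CD68 fell by 0.76 ± 0.05, none rose and the other 7 were not called. Their part in the GPNMB result was not tested. Among 8 keratinocyte markers none rose and 1 fell, with mean levels of 5.25 to 5.40 in IDTC and 5.22 to 5.39 in Parent arrays. Among 8 fibroblast markers 1 rose and 2 fell (5.81 to 5.87 in IDTC and 5.89 to 5.97 in Parent arrays). No call was made by limma among 8 endothelial markers (5.51 to 5.62 in IDTC and 5.52 to 5.64 in Parent arrays). Among 5 Schwann and glial markers 1 rose and 2 fell (8.02 to 8.05 in IDTC and 7.79 to 7.88 in Parent arrays), and the one that rose, MBP, did so by 2.71 ± 0.06. Markers of the retinal pigment epithelium, the other pigmented tissue, were mixed. Of 7 genes 5 rose, OTX2 was not called, and RLBP1 had the largest change of the list and fell by 3.33 ± 0.06 on the log2 scale. Their mean level was 6.89 to 6.96 in IDTC and 6.44 to 6.48 in Parent arrays, and their part in the result was not tested.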

How the data were processed

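RNA of 6 cultures was hybridised to whole-transcript arrays, 3 per group. The deposited values are log2 expression per probe set, already normalized by the authors; RMA, Partek 6.6 and Affymetrix Expression Console are listed in the submitters' processing notes, with no role for each. The table holds 33297 probe sets, of which 19460 had 1 symbol in the platform annotation, 1754 had several and 12083 were not listed; 19429 matched a GRCh38.p14 gene record by gene number, and the brightest probe set per symbol left 18417 genes. Its genome build and detection calls are not given in the sources used here.

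Groups and replicate numbers came from the sample titles. IDTC and Parent were compared by a 2-sided moderated test (limma 3.58.1, R 4.3.3) on all 6 arrays, without covariates or a filter and with Benjamini-Hochberg adjustment over all genes and a threshold of 0.05. The number of arrays limits the precision. Errors of log2 fold changes are standard errors and those of levels are SDs. In data simulated with the measured spread, 58% of changes of 0.5 log2 and 96% of changes of 1 log2 were recovered, with 6 false calls. Each size was given to 50 of 18417 genes, so far fewer genes changed than were called here. Changes as small as those of OCA2, SLC45A2 and SLC24A5 were not simulated. Lists are described by counts and medians, with no set test.

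All 10 genes of the set were to be named, and from each list up to 4 called genes with the largest absolute change (up to 2 where none was called), MITF, SOX10, MC1R and the 3 genes most like the member that changed most. SLC7A11, BACE2, PLA1A, GLA, NPC1, S100A1 and OTX2 are named outside this rule, chosen after their values were seen. The members and lists were chosen with earlier results of these data known. Promoter windows came from RefSeq (GRCh38.p14) and no window was matched for PMEL or SLC45A2. Proteins were not compared, since no protein sequences were used here. Alternatives were another scaling, a filter on dim genes, another choice of probe sets, another prior variance, the replicate number as a block, and leaving out each array.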

Additional observations from a re-analysis of the deposited data

How the results depend on the processing

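The count of genes of the set that rose was 8 of 9 and stayed at 7 or 8 of 9 in each alternative that kept all of them, and was 6 of 7 without the dimmest 40% of genes, which removes TYRP1 and OCA2. The count that fell, 1 (SLC24A5), was 0 after re-centring the arrays on their medians and 0 after quantile normalization, and 0 to 1 with each array left out in turn (0 without any of the Parent arrays). The median log2 fold change of the set was 0.86 to 0.90 over the alternatives with all 9 genes. Titles give both groups the numbers 1 to 3. The deviations of same-numbered arrays correlated at 0.315, -0.192 and 0.26, and those of differently numbered arrays at -0.473 to 0.372, so a pairing by number was not shown and a shared batch was not settled. With the replicate block, 8 genes of the set rose and 1 fell, and 71 pathway genes rose and 56 fell, against 72 and 59 without it. Over all alternatives 69 to 76 pathway genes rose and 50 to 62 fell, and the log2 fold change of TYR was 1.41 with the mean of its probe sets. The middle of all genes lay between -0.07 and 0.00 under every setting. Of the other genes named from the lists by the rule, the markers FAP (fibroblast, higher) and KRT15 (keratinocyte, lower) lost their calls, in 5 alternatives and in 1. Like TYRP1 and OCA2, the genes TRPM1, ABCB5, GCH1, RPE65, LYZ, FCER1G, FAP and KRT15 were among the dimmest 40% of genes. Levels and changes of such dim genes are limited by an unknown background.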

Other observations

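The markers of the retinal pigment epithelium, which uses the same melanin enzymes, had a median log2 fold change of 0.58. BEST1, a chloride channel gene and a known MITF target in that epithelium, read 10.74, 10.62 and 10.67 in IDTC cells, against 7.46, 7.55 and 7.61 in Parent cells, a rise of 3.13 ± 0.06 (8.78-fold, adjusted p = 1.80e-07, limma). RPE65, the isomerase of the visual cycle, averaged 6.11 ± 0.14 in IDTC and 4.40 ± 0.13 in Parent cells (log2, SD, n = 3) and rose 3.25-fold (adjusted p = 6.91e-06, limma). RGR rose by 0.94 ± 0.11. RLBP1, which binds retinal in the same cycle, moved the other way, at 6.50, 6.61 and 6.55 in IDTC cells, against 9.95, 9.85 and 9.87 in Parent cells, and fell by 3.33 ± 0.06 on the log2 scale (10.1-fold lower, adjusted p = 1.09e-07, limma). OTX2, a transcription factor of that epithelium, was not called (-0.04 ± 0.09, adjusted p = 0.782, limma).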
